A study of Vitis vinifera with 36 samples.

Results

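The genes *VviMYC1* (VIT_207s0104g00090) and *VviMYCA1* (VIT_215s0046g02560), which encode basic helix-loop-helix (bHLH) proteins, and *VviWDR1* (VIT_216s0098g00870), which encodes a WD40-repeat protein, were followed through a double cropping year. They were chosen by name and identifier as partners of one regulatory complex and not by a rule on their expression. Earlier results of these data were known when they were chosen. They are 3 of the 28441 genes listed in the libraries. All 3 passed the filter on low counts and were among the 20183 genes tested.

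The vines were Cabernet Sauvignon (“CS”), a red cultivar, and “Riesling,” a white one. They were 7 years old, grafted on SO4 rootstock and grown under a rain shelter in southern China in 2014. Each carried a summer crop and, after a further pruning in August, a winter crop, and bud burst was forced with hydrogen cyanamide in both. Berries were sampled in stages E-L 35, 36 and 38 of the Eichhorn-Lorenz scale, which here stand for the beginning of veraison (the colouring and softening of the berry), its end, and harvest. This gave 12 conditions with 3 biological replicates each, and RNA of deseeded whole berries was sequenced in 36 libraries. The sources do not say whether replicates came from separate vines, so p-values measure the spread between these samples. Skin and flesh were extracted together, so a change in the share of skin cells and a change in the RNA of each cell cannot be told apart.

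In flavonoid regulation, a MYB protein that recognizes the promoter, a bHLH protein and a WD40 protein assemble into one complex that switches on genes of pigment and tannin synthesis. The MYB partner gives the complex its targets: VviMYBA1 and VviMYBA2 direct it to the anthocyanin glucosyltransferase gene *VviUFGT*, whereas VviMYBPA1, VviMYB5a and VviMYB5b act on the proanthocyanidin and general flavonoid genes. The bHLH and WD40 proteins are shared among these complexes. White cultivars carry non-functional *VviMYBA1* and *VviMYBA2* alleles, while the bHLH and WD40 genes are present in white and red berries alike.

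Library totals ran from 8367013 to 28686956 expected counts with a median of 10966200, so that 3 counts corresponded to 0.105 to 0.359 CPM (counts scaled to library size). The cultivar labels were checked with *VviAOMT* and *Vvi3AT*, the anthocyanin methyl- and acyltransferase genes: their summed level lay between 28.5 and 241.1 FPKM (fragments per kilobase of transcript, scaled to library size) in the “CS” libraries and between 0 and 1.13 FPKM in the “Riesling” libraries. The stage labels were checked with an index of ripening, defined as the average z-score of 148 genes that rose minus that of 624 genes that fell from E-L 35 to E-L 38 in both “CS” crops and in the “Riesling” winter crop. None of the members was among these genes (0 rising, 0 falling). By this choice of genes the index climbs from E-L 35 to E-L 38 in those 3 series, which is no check of their labels: it went from -1.60 to 1.58 in the “CS” summer crop, from -1.29 to 2.55 in the “CS” winter crop and from -1.54 to 2.46 in the “Riesling” winter crop. In the “Riesling” summer crop, which was not used to choose the genes, it was -1.68, 0.33 and -0.55 for the labels E-L 35, 36 and 38. The 3 “Riesling” summer libraries labelled E-L 38 therefore go against their label. They are called the doubtful libraries here. They enter every “Riesling” summer value labelled E-L 38 and every average over the “Riesling” stages. The index breaks the order of the labels E-L 36 and 38 in the “Riesling” summer crop, but cannot tell which of them is wrong. “Riesling” summer values labelled E-L 36 are therefore less certain too. At E-L 38 the winter libraries also stood further along the index than the summer ones in “CS,” at 2.55 ± 0.12 against 1.58 ± 0.17 (SD, n = 3).

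On the 12X V2 genome used for the files, *VviMYC1* lies on the minus strand of chromosome 7 at chr7:1386781-1392990. Its 2 annotated transcripts share the coding exons (2091 bases) and differ by a 198-base intron in the 5′ UTR, which gives a longer form of 8 exons and 2775 bases and a shorter form of 9 exons and 2577 bases. The last 95 bases of its 3′ end overlap VIT_207s0104g00080 on the other strand. That gene had 3.67 to 7.32 FPKM over the conditions, and since the strand used in counting is not given in the sources used here, reads in the overlap cannot be assigned with certainty. *VviMYCA1* lies on the minus strand of chromosome 15 at chr15:19338540-19344329, with 8 exons and a transcript of 3285 bases. *VviWDR1* lies on the plus strand of chromosome 16 at chr16:21201188-21204083, with 2 exons, 1722 bases in all and 1011 coding bases. No annotated gene overlaps *VviMYCA1* or *VviWDR1*. Counts of *VviMYCA1* and *VviWDR1* were whole numbers in every library, and those of *VviMYC1* carried a fraction in 8 libraries, by at most 0.26 of a count.

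All 3 genes were expressed in every library of both cultivars. Levels per transcript length, in FPKM, ranged from 9.45 to 28.4 for *VviMYC1*, from 2.34 to 7.17 for *VviMYCA1* and from 9.47 to 38.0 for *VviWDR1*. Their means over all libraries were 20.6, 4.03 and 24.8 FPKM, which stood at the 75.3, 37.8 and 79.3 percentiles of the tested genes. Thus *VviMYC1* was the more abundant bHLH gene throughout. The condition with the highest mean exceeded that with the lowest by 2.61-fold for *VviMYC1*, 2.65-fold for *VviMYCA1* and 2.67-fold for *VviWDR1*. The SD of log2 levels between conditions was 0.45, 0.32 and 0.40, below the median of 0.50 over all tested genes, and the SD within conditions was 0.16, 0.13 and 0.20 against a median of 0.25. The members were therefore less variable than the median gene both between conditions and between replicates.

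**Figure D1:**
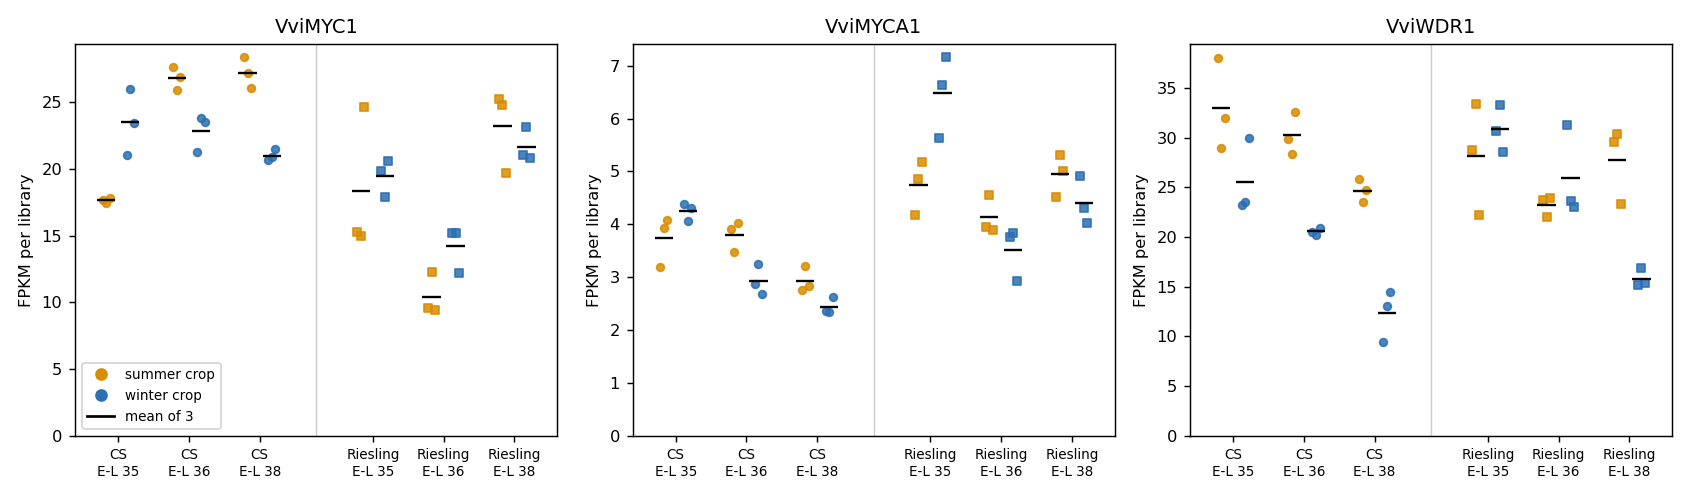
Level of each gene in FPKM (vertical axes, starting at 0) in every library, by cultivar and E-L stage; orange is the summer crop, blue the winter crop, circles are CS, squares Riesling, and bars are means of 3 libraries. VviWDR1 is lowest in the 6 winter libraries of E-L 38 (9.47 to 16.9 FPKM), and VviMYC1 has its lowest means in Riesling at E-L 36.

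*VviMYC1* encodes the bHLH protein known to interact with VviMYBA1 and VviMYBPA1. In “CS” summer berries its level was 17.7 ± 0.163, 26.8 ± 0.877 and 27.2 ± 1.16 FPKM at the successive stages (SD, n = 3). In “CS” winter berries the corresponding values were 23.5 ± 2.46, 22.9 ± 1.42 and 21.0 ± 0.45 FPKM. In “Riesling” the course by label was different, with the lowest mean at E-L 36 in both crops: 18.3 ± 5.51, 10.4 ± 1.60 and 23.3 ± 3.06 FPKM in summer, and 19.5 ± 1.41, 14.2 ± 1.73 and 21.7 ± 1.27 in winter. The summer course depends on the order of the labels E-L 36 and 38, which the ripening index breaks. In the order of the 12 means, 9 of the 11 pairs of neighbours had overlapping library ranges. The 2 steps without overlap were those from “CS” winter E-L 38 to “Riesling” winter E-L 35, and from “CS” summer E-L 35 to “Riesling” winter E-L 36, which set the “Riesling” E-L 36 berries of both crops apart below all other conditions by their means. One “Riesling” summer library of E-L 35, replicate 3, had 24.7 FPKM where the others had 15.31 and 14.99, and its ripening index was -2.23 against -1.24 and -1.58.

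*VviMYCA1* encodes a second bHLH protein of the pathway. Its mean was highest in “Riesling” winter berries at E-L 35, with 5.64, 6.63 and 7.17 FPKM in the 3 libraries, all above the libraries of the next condition. It was lowest in the winter crop of “CS” at E-L 38, with 2.36, 2.34 and 2.63 FPKM, all below the libraries of the condition before. Between these ends the means ran from 2.93 to 4.94 FPKM, and 9 of the 11 neighbouring pairs overlapped.

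*VviWDR1* encodes the WD40 protein of the complex. It was highest in “CS” summer berries at E-L 35, with 38.0, 28.9 and 32.0 FPKM. The 3 lowest means were those of “CS” winter E-L 36 (20.6 ± 0.376 FPKM), “Riesling” winter E-L 38 (15.8 ± 0.908) and “CS” winter E-L 38 (12.3 ± 2.58), and each of these was separated without overlap from the condition above it (SD, n = 3). The other 8 neighbouring pairs overlapped.

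The first comparison asked whether the members differed between winter and summer berries of the same cultivar and labelled stage. A gene was called changed where the adjusted p did not exceed 0.01 and the levels differed at least 2-fold (edgeR quasi-likelihood test, Benjamini-Hochberg over 20183 genes). Of the 18 tests, 3 genes in 6 comparisons, 1 was called: *VviWDR1* was lower in the winter crop of “CS” at E-L 38. In that comparison 17.2% of all tested genes were called, 9.90% as lower. The share called was 10.4% and 12.3% at E-L 35 and 36 in “CS,” and 10.0%, 7.13% and 27.9% at the 3 stages in “Riesling.” The members were thus not called more often than genes at large.

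*VviWDR1* in “CS” at E-L 38 had 25.8, 23.5 and 24.7 FPKM in summer and 9.47, 13.1 and 14.5 in winter. The groups did not overlap. The log2 fold change was -1.04 (SE 0.16, 95% interval -1.37 to -0.71, edgeR adjusted p = 4.73e-06), which equals 0.49 times the summer level and is a larger shift than in 74.9% of tested genes. Without winter replicate 1, the lowest library, it was -0.89 (edgeR adjusted p = 6.79e-05), below the 2-fold limit, and on log2(FPKM + 1) values limma gave -0.96 (adjusted p = 2.23e-06), also below that limit. The winter libraries of this stage stood further along the ripening index (values above), and the part of this in the difference was not tested.

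At the other “CS” stages *VviWDR1* was also lower in winter by its mean, but was not called: the log2 fold change was -0.33 at E-L 35 (95% interval -0.64 to -0.01) and -0.41 for E-L 36 (-0.73 to -0.09), with edgeR adjusted p = 0.0981 and 0.0383. Averaged over the 3 stages, 9 libraries against 9, it was -0.59 (SE 0.09, edgeR adjusted p = 2.79e-06), short of the fold limit; 13.1% of all genes were called in this average. In “Riesling” the *VviWDR1* differences were 0.13, 0.32 and -0.76 at the successive stages, with an edgeR adjusted p of 0.000174 for the last. The last value sets winter berries of 15.2, 16.9 and 15.4 FPKM against 29.6, 30.4 and 23.3 FPKM in the doubtful summer libraries, whose ripening index was -0.55 against 2.46 in winter. Set against the same summer libraries, winter berries of E-L 36, which had a similar ripening index (-0.50 against -0.55), gave -0.03 (95% interval -0.35 to 0.30, edgeR adjusted p = 0.919). For the bHLH genes this comparison gave -0.64 for *VviMYC1* (edgeR adjusted p = 0.000242) and -0.42 for *VviMYCA1* (edgeR adjusted p = 0.0038). With the winter berries of E-L 38 they had -0.06 and -0.11. Over the 3 “Riesling” stages the mean difference was -0.10 (edgeR adjusted p = 0.358), where 10.1% of all genes were called, and it was 0.23 (edgeR adjusted p = 0.109) over E-L 35 and 36 without the doubtful libraries.

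*VviMYC1* was not called in any of the 6 season comparisons. Its winter value was higher in “CS” at E-L 35, with summer libraries at 17.7, 17.5 and 17.8 FPKM and winter libraries at 21.1, 26.0 and 23.5 (log2 fold change 0.47, SE 0.13, edgeR adjusted p = 0.0052). It was lower in “CS” at E-L 38, with 28.4, 27.2 and 26.1 FPKM in summer and 20.7, 20.9 and 21.5 in winter (-0.43, SE 0.13, edgeR adjusted p = 0.00661). In both stages the groups did not overlap, and the differences had opposite signs, so that the average over the 3 “CS” stages was -0.02 (95% interval -0.17 to 0.14). In “Riesling” the largest *VviMYC1* difference was at E-L 36, with 9.57, 12.3 and 9.45 FPKM in summer and 15.2, 15.2 and 12.2 in winter (0.58, SE 0.13, edgeR adjusted p = 0.00133). Here the lowest winter library (12.22 FPKM) lay just below the highest summer one (12.27 FPKM), and the summer side has the less certain label E-L 36. At E-L 35 and 38 of “Riesling” the intervals were -0.15 to 0.39 and -0.32 to 0.21, the latter with the doubtful libraries. The average over the 3 “Riesling” stages was 0.21 (edgeR adjusted p = 0.0182), and over E-L 35 and 36 without those libraries it was 0.35 (edgeR adjusted p = 0.00352), still under the 2-fold limit.

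*VviMYCA1* was not called between crops either. Its largest difference was in “Riesling” at E-L 35, with 4.17, 4.86 and 5.18 FPKM in summer and 5.64, 6.63 and 7.17 in winter, without overlap (log2 fold change 0.46, SE 0.11, edgeR adjusted p = 0.00214). The other 5 differences lay between -0.31 and 0.25, with edgeR adjusted p-values from 0.0323 to 0.65. The averages over the stages were -0.10 (95% interval -0.24 to 0.04) in “CS” and 0.09 (-0.05 to 0.22) in “Riesling.” Over E-L 35 and 36 of “Riesling,” without the doubtful libraries, the average was 0.19 (edgeR adjusted p = 0.0686).

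**Figure D2:**
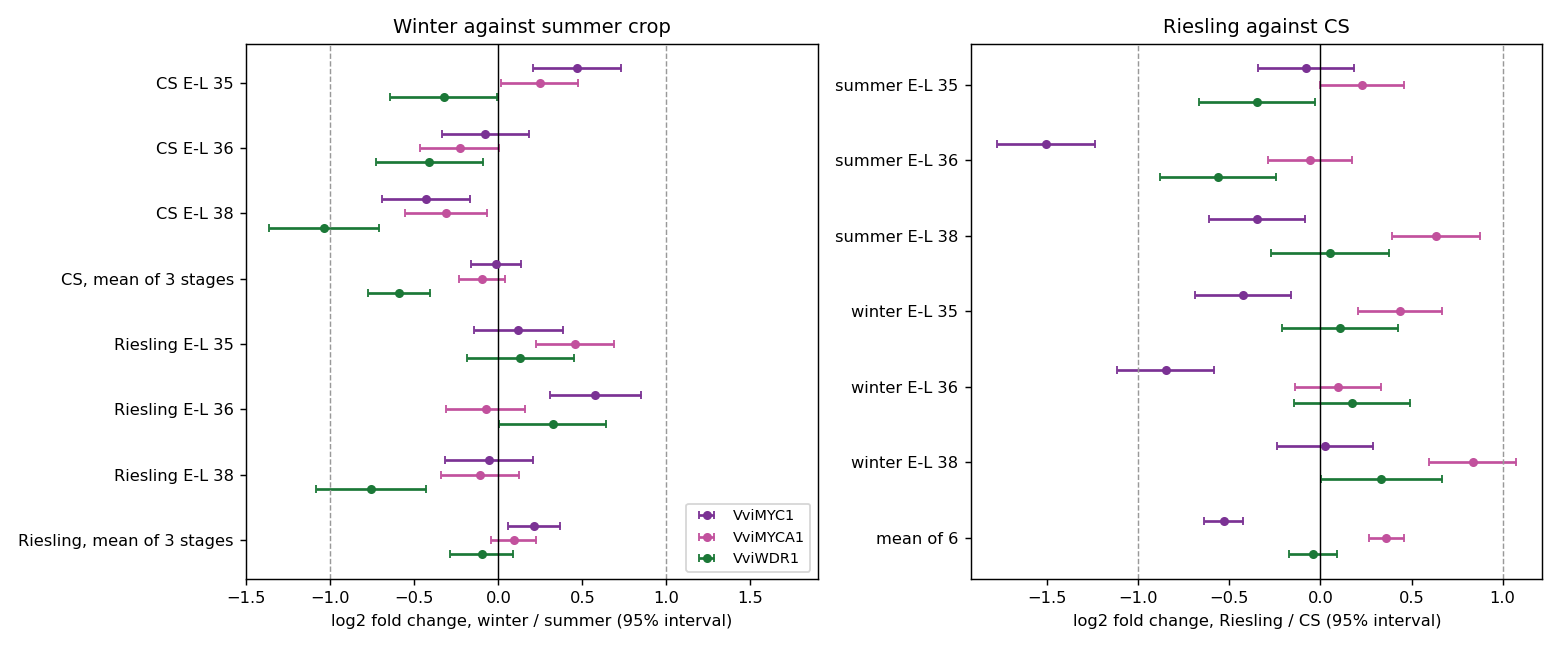
Log2 fold changes (horizontal axes) of the 3 genes with 95% intervals from the edgeR fit, winter over summer at left and Riesling over CS at right; dashed lines mark a 2-fold change. The point estimate lies beyond a dashed line for VviWDR1 in CS at E-L 38 (-1.04) in the season panel and for VviMYC1 in summer berries of E-L 36 (-1.51) in the cultivar panel, and for no other value drawn.

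Whether the season effect differed between cultivars was tested directly with the difference of the 2 log2 fold changes, “Riesling” minus “CS.” None of the 9 tests (0) reached an adjusted p of 0.01 in edgeR, where 1.53% (E-L 35), 11.7% (E-L 36) and 13.4% (E-L 38) of all genes did; 4 of the 9 had an unadjusted p below 0.05, and DESeq2 called 2. Both lay at E-L 36: 0.66 for *VviMYC1* (SE 0.18, edgeR adjusted p = 0.0104) and 0.73 for *VviWDR1* (SE 0.22, edgeR adjusted p = 0.0166). Both use the “Riesling” summer libraries labelled E-L 36, a label that is less certain. The *VviMYC1* value is at the edge of the threshold and passed it with DESeq2 (0.66, adjusted p = 0.00362) and with the replicate block (0.66, edgeR adjusted p = 0.0083). At E-L 38 the *VviWDR1* differences of the cultivars, -1.04 in “CS” and -0.76 in “Riesling,” were 0.28 apart (95% interval -0.18 to 0.74, edgeR adjusted p = 0.402), a value that rests on the doubtful libraries.

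The second comparison followed ripening within each cultivar and crop. Of the 24 tests, 1 was called. Of all tested genes, 6.51% and then 2.41% were called over the successive steps in “CS” summer berries, 9.39% and 15.9% in “CS” winter, 10.2% and 11.9% in “Riesling” summer, and 10.1% and 18.9% in “Riesling” winter berries. The call was *VviMYC1* from E-L 36 to 38 in “Riesling” summer berries, where 5.78% of genes were called higher: the libraries went from 9.57, 12.3 and 9.45 FPKM to 25.3, 24.8 and 19.7, without overlap (log2 fold change 1.22, SE 0.13, edgeR adjusted p = 3.66e-08). It rests on the 3 libraries that go against their label. With every test that needs these libraries left out, no stage test was called (0). In “Riesling” winter berries *VviMYC1* was -0.31 from E-L 35 to 36 (edgeR adjusted p = 0.0634) and 0.58 from E-L 36 to 38 (SE 0.13, edgeR adjusted p = 0.000478), both below the 2-fold limit.

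In “CS” the course of *VviMYC1* was another. In summer it was 0.66 from E-L 35 to 36 (SE 0.13, edgeR adjusted p = 0.000403), then 0.06. In “Riesling” summer berries the first of these steps had the opposite sign, -0.77 (SE 0.13, edgeR adjusted p = 4.09e-05), with 15.31, 14.99 and 24.7 FPKM going to 9.57, 12.3 and 9.45 without overlap. This step ends at the less certain label E-L 36. In “CS” winter berries *VviMYC1* was 0.12, then -0.29, with edgeR adjusted p-values of 0.506 and 0.0609. The first of these winter values was -0.04 on the FPKM scale in limma, so that its direction depends on the scaling.

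*VviWDR1* had lower levels at harvest than at E-L 36 in both winter crops. In “CS” winter berries it went from 20.5, 20.2 and 20.9 FPKM to 9.47, 13.1 and 14.5 (log2 fold change -0.89, SE 0.16, edgeR adjusted p = 3.77e-05). In “Riesling” winter berries it went from 31.3, 23.6 and 23.0 FPKM to 15.2, 16.9 and 15.4 (-0.73, SE 0.16, edgeR adjusted p = 0.000363). Neither passed the 2-fold limit, although the “CS” value did, at -1.02, without winter E-L 38 replicate 3. In “CS” summer berries the same step was -0.27 (95% interval -0.59 to 0.06). In “Riesling” summer berries, with the doubtful libraries, it had the opposite sign, 0.35 (95% interval 0.03 to 0.67, edgeR adjusted p = 0.076). From E-L 35 to 36 the *VviWDR1* values of the 4 series lay between -0.28 and -0.07, with edgeR adjusted p-values from 0.153 to 0.785.

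*VviMYCA1* had lower means at each later stage in “CS” winter berries, with log2 fold changes of -0.38 and then -0.43 (edgeR adjusted p = 0.0101 and 0.00367). In “Riesling” winter berries it was -0.72 from E-L 35 to 36 (SE 0.11, edgeR adjusted p = 1.54e-05), followed by 0.31 (edgeR adjusted p = 0.0245). None of the 8 *VviMYCA1* stage tests passed the fold limit.

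Across the 12 condition means, Pearson's r between the log2 level and the ripening index was -0.78 for *VviWDR1*, -0.57 for *VviMYCA1* and 0.27 for *VviMYC1*. These are descriptions over 12 points that share cultivars and crops.

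**Figure D3:**
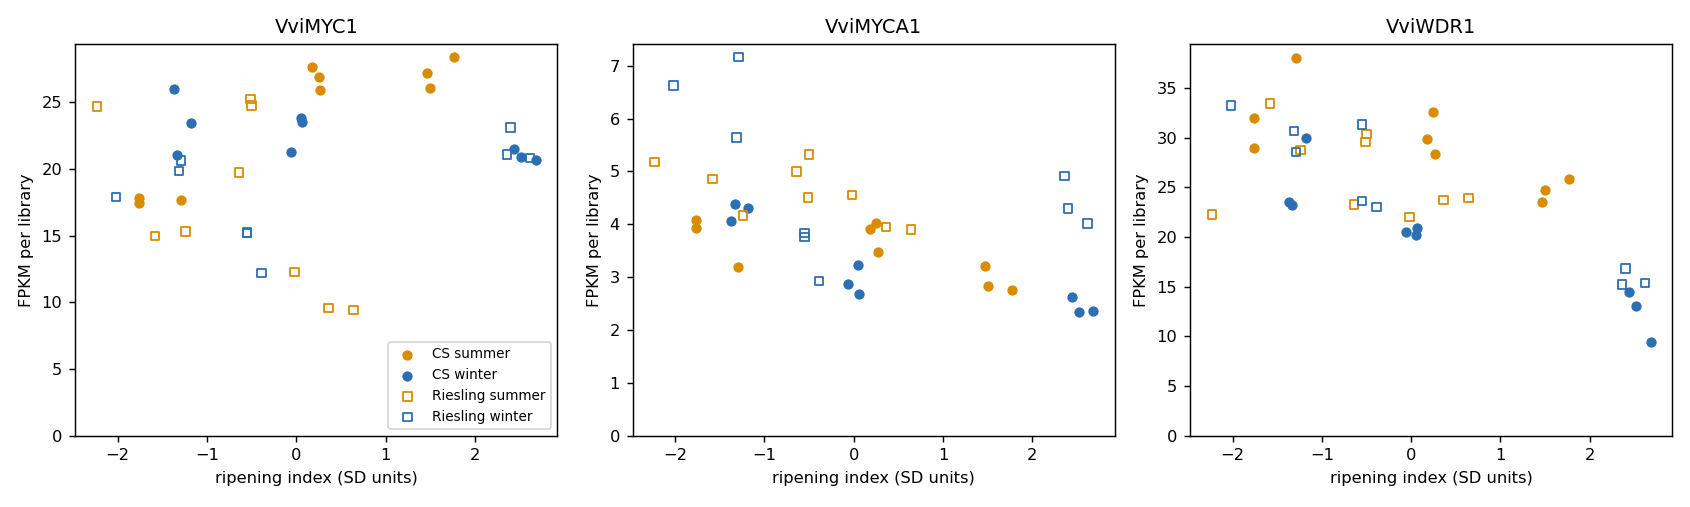
FPKM of each gene (vertical axes, starting at 0) against the ripening index (horizontal axes, SD units) in the 36 libraries; filled circles are CS, open squares Riesling, orange summer and blue winter. The 6 winter libraries labelled E-L 38 lie at the right with the lowest VviWDR1 levels (9.47 to 16.9 FPKM), and the Riesling summer libraries labelled E-L 38 lie left of those labelled E-L 36.

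The third comparison set the white cultivar against the red one at the same crop and stage. The 2 bHLH genes went opposite ways. Averaged over the 6 crop-stage pairs, *VviMYC1* was lower in “Riesling” (log2 fold change -0.53, SE 0.05, 95% interval -0.64 to -0.42, edgeR adjusted p = 6.53e-10) and *VviMYCA1* was higher (0.36, SE 0.05, 95% interval 0.27 to 0.46, edgeR adjusted p = 9.67e-08). Both stayed under the 2-fold limit, and 15.4% of all genes were called in this average. *VviWDR1* was -0.04 (95% interval -0.17 to 0.09, edgeR adjusted p = 0.602), and 0.08 on the FPKM scale in limma. Its single values went both ways: -0.35 and -0.56 in summer berries of E-L 35 and 36 (edgeR adjusted p = 0.0819 and 0.00413), 0.05 with the doubtful libraries, and 0.11, 0.17 and 0.33 at the successive winter stages (edgeR adjusted p = 0.111 for the last).

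Of the 21 tests 1 was called, *VviMYC1* in summer berries at E-L 36, where 16.9% of all genes were called, 7.61% as lower in “Riesling.” The share was 11.6% and 19.1% at E-L 35 and 38 of the summer crop and 14.6%, 13.6% and 12.1% at the successive winter stages. The “CS” libraries had 27.7, 25.9 and 26.9 FPKM and the “Riesling” libraries 9.57, 12.3 and 9.45, without overlap (log2 fold change -1.51, SE 0.13, 95% interval -1.77 to -1.24, edgeR adjusted p = 3.14e-10). In winter berries of E-L 36 the *VviMYC1* difference was -0.85 (SE 0.13, edgeR adjusted p = 7.38e-06), with 21.3, 23.9 and 23.6 FPKM in “CS” against 15.2, 15.2 and 12.2 in “Riesling.” At the 2 other winter stages it was -0.43 (E-L 35, edgeR adjusted p = 0.00923) and 0.02 (E-L 38, 95% interval -0.24 to 0.29). In summer berries it was -0.08 at E-L 35 (95% interval -0.34 to 0.18) and -0.35 at the label E-L 38 (edgeR adjusted p = 0.0267, with the doubtful libraries). The largest *VviMYC1* differences of both crops thus stood at the label E-L 36, whose order against E-L 38 is broken in “Riesling” summer berries. Whether the cultivar difference changed with the stage was not tested.

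The excess of *VviMYCA1* in “Riesling” lay at other stages. It was 0.84 in winter berries of E-L 38 (SE 0.12, edgeR adjusted p = 2.45e-06), where “CS” had 2.36, 2.34 and 2.63 FPKM and “Riesling” 4.91, 4.30 and 4.02. It was 0.44 in winter berries of E-L 35 (edgeR adjusted p = 0.0027), and 0.64 in summer berries labelled E-L 38 (edgeR adjusted p = 6e-05), which again involves the doubtful libraries. At E-L 36 the intervals of both crops included 0, at -0.29 to 0.18 in summer and -0.14 to 0.33 in winter, and the summer value (-0.06) was above 0 on the FPKM scale (0.10 in limma). Without the doubtful stage, over 5 conditions per cultivar, the averages were -0.57 for *VviMYC1* and 0.31 for *VviMYCA1*.

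Because FPKM values are per transcript length, the 2 bHLH genes can be set against each other within a library. *VviMYC1* exceeded *VviMYCA1* in all 36 libraries. The ratio of *VviMYC1* to *VviMYCA1* had a higher mean at each later stage in “CS,” at 4.79 ± 0.66, 7.08 ± 0.39 and 9.32 ± 0.93 in summer and 5.55 ± 0.80, 7.85 ± 0.81 and 8.62 ± 0.39 in winter (SD, n = 3). In “Riesling” it was 3.84 ± 0.86, 2.51 ± 0.16 and 4.74 ± 0.83 in summer and 3.03 ± 0.43, 4.06 ± 0.10 and 4.95 ± 0.58 in winter. Over the 6 crop-stage pairs the “Riesling” ratio was 0.53 times that of “CS,” a log2 difference of -0.91 (two-sided permutation test within pairs, 18 libraries against 18, 100000 resamples, p = 1e-05, the smallest they can give; adjusted p = 0.00015 over 15 tests). In 5 of the 6 pairs the cultivars did not overlap, which gives an exact permutation p of 0.1, the smallest possible with 3 against 3. The exception was summer E-L 35. Between crops the ratio differed by 1.06-fold in “CS” (exact permutation within stages, p = 0.283) and 1.11-fold in “Riesling” (exact permutation, p = 0.317). The “Riesling” average covers stages that went both ways, with winter at 0.8, 1.62 and 1.05 times summer, the last with the doubtful libraries. Only at E-L 36 did the “Riesling” crops not overlap (exact permutation p = 0.1).

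**Figure D4:**
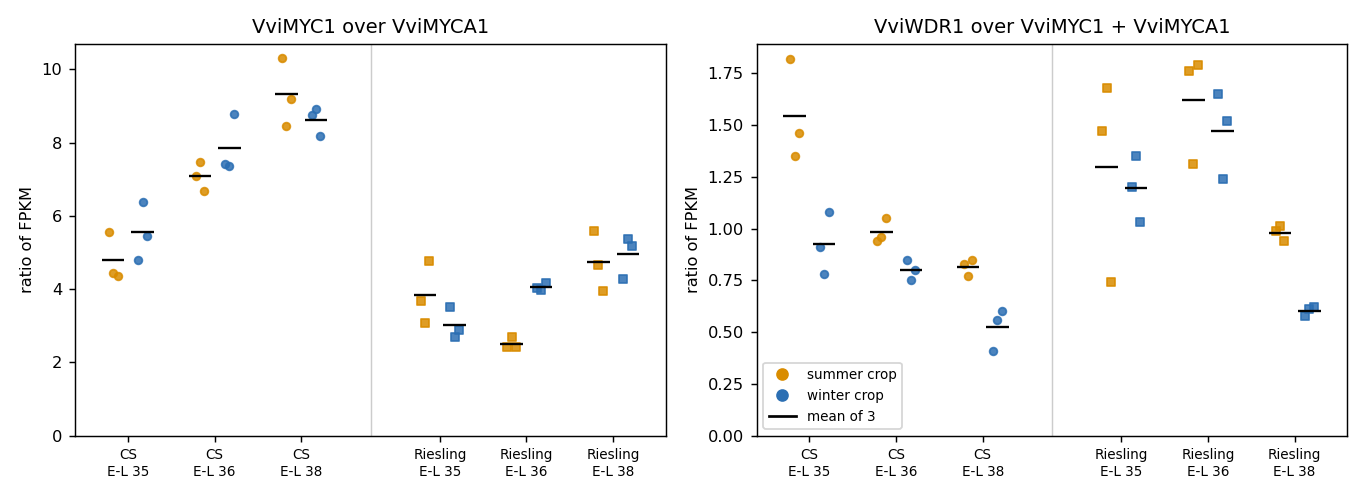
Ratio of FPKM values within each library (vertical axes, starting at 0), by cultivar and stage, summer in orange and winter in blue, with means of 3 as bars. At left VviMYC1 over VviMYCA1 reaches 10.3 in CS and stays at or below 5.6 in Riesling; at right VviWDR1 over the summed bHLH genes is lowest at E-L 38 of the winter crops.

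*VviWDR1* was set against the sum of both bHLH genes in the same way. In “CS” this ratio was 1.54 ± 0.25, 0.98 ± 0.06 and 0.82 ± 0.04 in summer and 0.92 ± 0.15, 0.80 ± 0.05 and 0.52 ± 0.10 in winter (SD, n = 3), and the winter libraries lay below the summer ones at every stage. Over the 3 stages the winter ratio in “CS” was 0.67 times the summer one (exact two-sided permutation within stages, p = 0.00025, adjusted p = 0.00375 over 15 tests). In “Riesling” it was 1.3 ± 0.49, 1.62 ± 0.27 and 0.98 ± 0.04 in summer and 1.19 ± 0.16, 1.47 ± 0.21 and 0.60 ± 0.02 in winter, and the winter ratio was 0.82 times the summer one (exact permutation, p = 0.0743, adjusted p = 0.15), a log2 difference of -0.29 that was -0.09 over E-L 35 and 36 without the doubtful libraries. Between cultivars the “Riesling” ratio was 1.28 times that of “CS” (permutation test, p = 0.00213, adjusted p = 0.016). That adjusted p became 0.0523 without the doubtful libraries, and 0.0538 and 0.0721 without “Riesling” summer E-L 35 replicate 1 or 2.

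The deposited length of *VviMYC1* differs between libraries, since it weights the 2 transcripts by their estimated share. From it, the longer transcript, which keeps the 198 bases in the 5′ UTR, accounted for 51.4% to 73.3% of the *VviMYC1* estimate in 11 conditions and for 86.7 ± 15% (SD, n = 3) in “Riesling” summer berries of E-L 36, the condition with the lowest *VviMYC1* level. The 3 libraries of that condition ranged from 69.7% to 97.7%. Of 23 differences tested by permutation, all with fewer than 10 libraries a group exactly, none reached an adjusted p of 0.05 (the lowest was 0.767, and no single-condition test can go below p = 0.1). The share comes from single reads of 50 bases and was examined after the data were seen.

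The level of the members can be put beside that of their MYB partners. The 4 *VviMYBA* genes of the list (*VviMYBA1* with 2 identifiers, *VviMYBA2* and *VviMYBA3*) summed to 275.5 FPKM in “CS” winter berries of E-L 36, the highest mean. The lowest mean, 0.77 FPKM, was that of the doubtful “Riesling” summer libraries, a 359.3-fold range, and the next lowest was 5.94 FPKM in “Riesling” summer berries of E-L 35. For *VviMYC1* the range was 2.61-fold. In “CS” the *VviMYBA* sum was 3.01, 2.26 and 1.98 times *VviMYC1* in summer and 8.3, 12.02 and 7.19 times in winter. In “Riesling” it was 0.39, 3.09 and 0.03 times *VviMYC1* in summer and 0.52, 8.82 and 6.44 times in winter. For the “Riesling” summer crop at E-L 36 the mean includes 1 library at 7.06 and others at 0.91 and 1.29. These genes are close relatives in one cluster, and their fractional counts show that reads were divided among similar genes, so the value of each is uncertain. The MYB sum ran from far below to far above the level of *VviMYC1*.

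**Figure D5:**
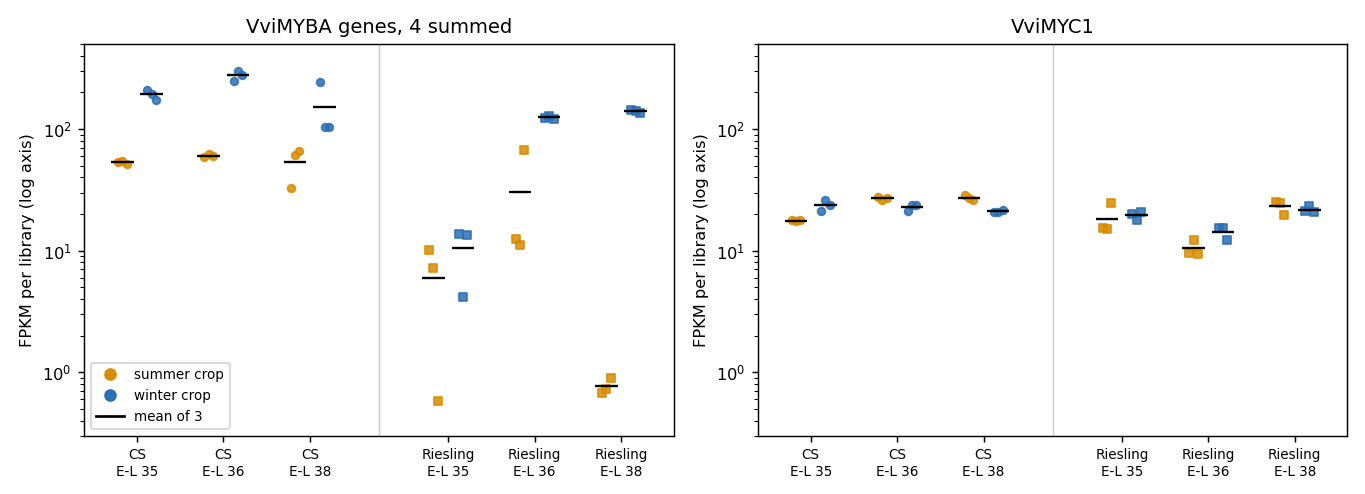
Summed FPKM of the 4 VviMYBA genes (left) and FPKM of VviMYC1 (right) in every library on equal log axes, by cultivar and stage, summer in orange and winter in blue, means of 3 as bars. The VviMYBA sum spans from below 1 to 301.5 FPKM, while VviMYC1 stays between 9.45 and 28.4 FPKM.

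Among the 8 MYB partners listed, 7 could be tested, and between 1 and 4 were called higher in winter in each season comparison, while 1, *VviMYBPA1*, was called lower at E-L 35 and 38 in both cultivars. In “CS” at E-L 36 *VviMYBA2* rose by 2.33 (SE 0.47, edgeR adjusted p = 0.000285) and *VviMYBA1* (VIT_202s0033g00380) by 2.85 (SE 0.55, edgeR adjusted p = 0.000176) on the log2 scale, beside -0.08 for *VviMYC1*, -0.23 for *VviMYCA1* and -0.41 for *VviWDR1*. The other *VviMYBA1* identifier, VIT_202s0033g00410, was called in no season comparison. At the successive stages it was 1, 0.87 and -1.25 in “CS” (edgeR adjusted p = 0.0852, 0.129 and 0.033). In “Riesling” it was -4.07, 5.84 and 1.31 (edgeR adjusted p = 0.222, 0.0119 and 0.476). In “Riesling” at E-L 38 *VviMYBA2* had 87.1 ± 3.89 FPKM in winter against 0.56 ± 0.23 in the doubtful summer libraries (SD, n = 3). *VviMYBA1* (VIT_202s0033g00380) had no count in those 3 summer libraries and was at least 27.7-fold higher in winter, taking 3 counts per library as the floor. *VviMYB5b*, known to be expressed mainly after veraison, was 0.99 higher in winter “CS” berries of E-L 38 (SE 0.11, edgeR adjusted p = 4.79e-08) and rose by 1.27 in “Riesling” (SE 0.12, edgeR adjusted p = 2.69e-10), where *VviWDR1* was lower and the doubtful libraries are the summer side. *VviMYBPA1*, an activator of proanthocyanidin genes, was named after its values were seen and fell by 1.97 and 2.58 in the same comparisons (edgeR adjusted p = 2.95e-05 and 1.45e-05), the second again with the doubtful libraries. At E-L 35 and 36 *VviMYB5b* was 0.73 and 0.78 in “CS” but 0.06 and -0.77 in “Riesling” (edgeR adjusted p = 1.18e-05 for the last). At E-L 36 *VviMYBPA1* was 0.12 in “CS” and 1.09 in “Riesling” (edgeR adjusted p = 0.807 and 0.0184). The “Riesling” values of E-L 36 use the less certain summer label.

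Of the 5 MYB repressors, 3 could be tested. All 3 were called higher in winter “CS” berries of E-L 36, among them *VviMYBC2-L3* by 2.73 and *VviMYBC2-L1* by 1.40 on the log2 scale (edgeR adjusted p = 0.00372 and 2.92e-08), and none (0) was called in the “CS” comparisons at E-L 35 and 38. The median of the list at E-L 36 was 1.40 in “CS” against -0.01 over all genes and -0.23 over the members. In “Riesling” at E-L 36 the list median was 1.33, against -0.01 over all genes and 0.32 over the members. There 1 repressor was called, *VviMYB4a*, higher in winter by 1.33 (edgeR adjusted p = 2.03e-08), with the less certain summer label.

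The genes known to lie downstream of the complex were listed by annotation. Of the 5 anthocyanin genes, 4 were called higher in winter “CS” berries of E-L 36, among them *VviUFGT* by 1.36 (SE 0.17, edgeR adjusted p = 4.37e-07) and the *VviAOMT* genes VIT_201s0010g03510 and VIT_201s0010g03490 by 1.58 and 1.56 (edgeR adjusted p = 3.1e-05 and 0.00633), and none (0) was called in “Riesling.” All 6 *VviF3′5′H* genes, which lead to the blue-type anthocyanins, were called higher in the same “CS” comparison, with a median of 2.36; VIT_206s0009g03000 rose by 2.94 and VIT_206s0009g03010 by 2.81 (edgeR adjusted p = 0.000727 and 0.000301). Of 13 flavonoid genes shared by the anthocyanin and tannin branches, 7 were called higher and 2 lower there (median 1.24). At E-L 38 this list had 1 higher and 2 lower in “CS” (median -0.17) and, against the doubtful libraries, 3 higher and 6 lower in “Riesling” (median -0.90). A gene annotated as *VviDFR*, dihydroflavonol reductase (VIT_202s0025g01260), was called lower in winter at every “CS” stage, with 23 to 34 counts in summer and 0 to 2 in winter at E-L 36. Another *VviDFR* gene (VIT_215s0048g01000) fell by 3.68 on the log2 scale in “Riesling” at E-L 38 (edgeR adjusted p = 1.09e-09), where the doubtful libraries enter.

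Over the 12 condition means of log2 levels, the members were set against each other. Pearson's r was -0.13 between the bHLH genes, 0.05 between *VviMYC1* and *VviWDR1*, and 0.46 between *VviMYCA1* and *VviWDR1*, the last being 0.81 over the 6 “CS” means and 0.27 over the 6 “Riesling” means. *VviMYC1* had r = 0.66 with *VviUFGT* and *VviMYCA1* had r = -0.57, and the cultivar difference enters both. *VviWDR1* had r = -0.85 with *VviMYB5b*. These values describe 12 points that share cultivar and crop.

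Among 17475 other genes with an SD between condition means of at least 0.25, the closest pattern over the 12 means was that of VIT_205s0102g01170 for *VviMYC1* (r = 0.86), VIT_212s0035g01430 for *VviMYCA1* (r = 0.92) and VIT_205s0077g01060 for *VviWDR1* (r = 0.97). Over the 36 libraries VIT_212s0035g01430 again came first for *VviMYCA1* (r = 0.86), while VIT_207s0104g00760 (r = 0.81) and VIT_211s0037g00930 (r = 0.92) did for *VviMYC1* and *VviWDR1*. The sources used here give these identifiers no gene name.

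The gene next to *VviWDR1*, VIT_216s0098g00860, annotated as a flavanone 3-hydroxylase and 14204 bases away, was examined for its levels alone. In “CS” winter berries its mean went from 43.2 through 27.5 to 18.5 FPKM, lower at each stage like that of *VviWDR1*. In “CS” summer berries the courses differed, with means of 22.5, 45.7 and 35.3 FPKM for the neighbour and 33.0, 30.2 and 24.7 for *VviWDR1*. In “Riesling” at E-L 36 the neighbour had 1.99 ± 0.86 FPKM in summer and 30.7 ± 3.45 in winter, where *VviWDR1* had 23.2 ± 1.07 and 26.0 ± 4.62 (SD, n = 3). Both genes were also low in “Riesling” winter berries of E-L 38, at 3.70 ± 0.33 FPKM for the neighbour.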

How the data were processed

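RNA was sequenced on an Illumina HiSeq instrument as single reads of 50 bases, and the authors mapped the reads on grapevine assembly 12X V2, allowing 2 mismatches; their processing notes list Bowtie. The counting program and strand are not given in the sources used here. Per the file headers, each library's table holds an expected count (estimated, not always whole), an FPKM value and a length per gene. A further table with 36 numbered columns, which no source maps to libraries, was not used.

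Expected counts were rounded, filtered (filterByExpr) and fitted in 1 model of 12 conditions with edgeR 4.0.16 in R 4.3.3 (TMM, quasi-likelihood F-test, Benjamini-Hochberg over 20183 genes). Calls required an adjusted p not above 0.01 and a difference of at least 2-fold, and for differences between cultivars in the season effect the p alone. SE and 95% intervals come from the F statistic. The fit was checked on simulated counts. Ratios of FPKM were tested in Python 3.11.15 by exact permutation, or 100000 resamples within strata, at an adjusted p of 0.05. Alternatives used DESeq2 1.42.0, limma 3.58.1 on log2(FPKM + 1) and log2(FPKM + 0.1), RLE scaling, no filter, fewer libraries and a replicate block. Neither labels nor methods say what a replicate number marks. In 1 of 20 comparisons (“Riesling” summer E-L 35 to 36) the deviations of all 3 same-numbered pairs correlated above 0.1 (r = 0.148, 0.103 and 0.246). The values given for that comparison come from the fit without a block, so they do not use this pairing. The replicate block was fitted as an alternative, and it changed no call there.

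The text names the members in every comparison, up to 2 called genes per list with the largest season change, and 5 genes fixed by name; genes most like a member were the closest by Pearson's r. The members and lists were chosen with earlier results of these data known. No sequence tables or genome were used here, so sequences are not shown.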

Additional observations from a re-analysis of the deposited data

Results flagged for a closer look

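In 2 cases the library ranges of successive stages did not overlap in either cultivar, by CPM, and the change had opposite signs in the cultivars. The check also covered the other stage steps of each member and its season comparisons, which did not meet it. How many of all genes meet it was not counted, so the 2 cases are not shown to be particular to the members. *VviMYC1* from E-L 35 to 36 in the summer crop was 0.66 in “CS” and -0.77 in “Riesling” on the log2 scale, -1.43 apart. *VviMYCA1* from E-L 36 to 38 in the winter crop was -0.43 in “CS” and 0.31 in “Riesling,” 0.74 apart. Neither difference was tested as such. In the first, “Riesling” summer E-L 35 replicate 3 (24.7 FPKM) stood above the other 2 libraries of its condition, and the “Riesling” summer label E-L 36 is less certain.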

How the results depend on the processing

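Of the 78 member tests, 24 had an edgeR adjusted p of at most 0.01, and these kept their sign in all 454 alternative values computed for them. This count says little about robustness. The alternative that changes only the threshold for calls repeats the value of the main fit, so its sign cannot change. The other alternatives reuse all or part of the same libraries, and the 24 tests were picked for their low adjusted p. What limits the comparisons is 3 replicates per condition, the “Riesling” summer libraries that go against their label, and the modest counts of *VviMYCA1* (70 to 389 per library). Alternatives that leave out those libraries or the tests that need them were in part added after the data were seen.

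*VviWDR1* in “CS” at E-L 38 lost its call on log2(FPKM + 1), with or without a filter at 1 FPKM (-0.96 in both), which left 0 season calls; without 1 library it was -1.16 to -0.89 and the season calls 0 to 1. With the replicate block it was -1.05 (edgeR adjusted p = 1.37e-05). The block changed no call between crops, stages or cultivars. For the season effect between cultivars at E-L 36 it carried *VviMYC1* past the threshold (0.66, edgeR adjusted p = 0.0083), as did RLE scaling (0.66), leaving out the doubtful libraries (0.66), fitting only the libraries compared (0.67) and DESeq2 (0.66). *VviWDR1* passed in the last pair of alternatives (0.75 and 0.74). Calls of this kind were then 1 with the block or RLE and 2 with only the libraries compared or DESeq2; without 1 library *VviMYC1* was 0.58 to 0.80 (called without “Riesling” summer E-L 36 replicate 2, 0.80, or winter E-L 36 replicate 3, 0.74) and the calls 0 to 1. Without 1 library *VviWDR1* from E-L 36 to 38 in “CS” winter berries was -1.02 to -0.74, and stage calls 1 to 2. Stage calls were 0 without the tests that need the doubtful libraries. The ratio of *VviWDR1* to the bHLH genes lost its call between cultivars without them (0.37), and without 1 library was 0.32 to 0.41 between cultivars and -0.41 to -0.22 between “Riesling” crops, the latter called without summer E-L 35 replicate 3.

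With the threshold at an adjusted p of 0.05 and no fold limit, calls rose to 8 between crops, 2 in the crop averages, 11 between stages, 10 between cultivars and 2 for the season effect between cultivars. By that rule 42.1%, 54.8%, 35.8% and 17.1% of all gene tests between crops, in crop averages, between stages and for the season effect between cultivars were called, and 40.6% (64.9% in the average) between cultivars. For *VviMYC1* these added 0.47 and -0.43 between “CS” crops at E-L 35 and 38, 0.58 and an average of 0.21 between “Riesling” crops, stage values of 0.66, -0.77 and 0.58, cultivar values of -0.35, -0.43, -0.85 and a mean of -0.53, and the season effect between cultivars of 0.66. For *VviMYCA1* they added -0.31 and 0.46 between crops, stage values of -0.38, -0.43, 0.35, -0.72 and 0.31, and cultivar values of 0.64, 0.44, 0.84 and a mean of 0.36. For *VviWDR1* they added -0.41, -0.76 and a “CS” average of -0.59 between crops, -0.89 and -0.73 between stages, -0.56 between cultivars and 0.73 for the season effect between cultivars.

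The following changed sign, and none of them was called. The *VviMYC1* average between “CS” crops was 0.004 with RLE and 0.003 with DESeq2. In limma, with a pseudocount of 1 (filtered or not) and of 0.1, *VviMYC1* was -0.035 and -0.036 from E-L 35 to 36 in “CS” winter berries and 0.014 and 0.013 between cultivars in summer E-L 35, *VviMYCA1* was 0.096 and 0.118 between cultivars in summer E-L 36, and the cultivar mean of *VviWDR1* was 0.081 and 0.086. The *VviWDR1* average between “Riesling” crops was 0.23 without E-L 38. Without 1 library, *VviMYC1* between crops ranged over -0.087 to 0.005 (“CS” E-L 36), -0.034 to 0.336 (“Riesling” E-L 35), -0.157 to 0.004 (“Riesling” E-L 38) and -0.038 to 0.01 (“CS” average), and between cultivars over -0.298 to 0.053 (summer E-L 35) and -0.02 to 0.052 (winter E-L 38). *VviMYCA1* between “Riesling” crops at E-L 36 ranged over -0.122 to 0.045. *VviWDR1* ranged over -0.042 to 0.25 (“Riesling” crops, E-L 35), -0.192 to 0.066 and -0.195 to 0.017 (E-L 35 to 36, “CS” summer and “Riesling” winter) and -0.014 to 0.156 (cultivars, summer E-L 38). The bHLH ratio ranged over -0.052 to 0.2 between “Riesling” crops at E-L 38, and the *VviWDR1* ratio over -0.409 to 0.179 between “Riesling” crops and -0.546 to 0.042 between cultivars, both at E-L 35.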
